A study of Mus musculus with 2 samples.

Results

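Of 20722 protein-coding genes on chromosomes 1 to 19, 566 had a promoter that was poor in CpG dinucleotides and carried a DNase-seq peak in both cerebellum libraries. These promoters were chosen by measured values. The start of each gene was its 5'-most coding transcript in GENCODE, and the CpG ratio (observed CpG count over the count expected from the C and G content) was taken over the 1001 bp centred on that start. A ratio under 0.4 defined 7976 CpG-poor promoters, and a peak of the larger of the deposited peak lists had to overlap 500 bp either side of the start in both libraries. The choice therefore used the peaks, and the signal values of those peaks are given as a description with no test.

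The series holds 2 DNase-seq libraries, numbered as biological replicates 1 and 2 of a single group. Both came from the cerebellum of male B6CASTF1/J mice aged 4 days, which are first-generation hybrids of C57BL/6J and CAST/EiJ. Each label names 3 males, so that a library stands for pooled animals, and both give the same donor identifier under different biosamples. Whether the animals of the libraries differ is not stated there, so a mean ± SD over the 2 libraries gives only the spread between them. The labels name NovaSeq and HiSeq instruments for replicate 1 only. No treatment, other genotype or control tissue was among the samples, so no contrast between conditions could be made, and that spread may be technical in part.

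Promoters of housekeeping genes lie mostly in CpG islands and are open in nearly every cell. CpG-poor promoters serve mainly genes used in few tissues, are commonly methylated where they are silent, and open where sequence-specific factors bind. DNase I cuts open chromatin, which gives a peak of cuts, and a bound factor shields a few bases inside it, which gives a footprint.

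The signal value of a peak lay between 0.245 and 5.86 at these promoters in replicate 1 (median 0.916) and between 0.18 and 11.9 in replicate 2 (median 1.55). The values lay on an even step of 0.00645 in replicate 1 and 0.00665 in replicate 2, and the number of reads behind a step is unknown. If 1 step were 1 count, the median promoter would rest on 142 counts in replicate 1, with a 95% Poisson interval of 0.772 to 1.08 on the signal scale, and on 233 counts in replicate 2, with an interval of 1.36 to 1.76. Such intervals cover counting error only. Replicate 1 had 61896 peaks and 112281 footprints in all, and replicate 2 had 131518 peaks and 261301 footprints.

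The sequences under the footprints show what these promoters hold. Each stretch below lies upstream of the start and outside every annotated exon, is written 5' to 3' on the strand of the gene, and comes from the C57BL/6J reference (GRCm38, mm10), so the CAST alleles of the hybrid mice are not represented. Capitals mark the bases inside a footprint of both libraries. A footprint was counted as holding a motif where the motif lay inside it or within 5 bp of its ends. The genes shown were picked after their footprints were seen.

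The first set shows the CTCF motif, found in footprints of both libraries at 25 of the 566 promoters. CTCF is a zinc finger protein that organises chromatin loops and marks boundaries between domains. The stretch of Amigo3, a neuronal adhesion protein, lies at chr9:108052986-108053067 on the + strand, from 173 to 92 bp before the start. That of Tnr (tenascin-R, an extracellular matrix protein of the brain) lies at chr1:159523659-159523745 on the + strand, and that of Arhgap22 (a GTPase-activating protein) at chr14:33213886-33213961 on the + strand. The stretch of Pcp4, the Purkinje cell protein that binds calmodulin, ends 1 bp before its start at chr16:96467543-96467605 on the + strand. That of C1rb, a serine protease of the complement system, lies at chr6:124570190-124570267 on the + strand.
Amigo3: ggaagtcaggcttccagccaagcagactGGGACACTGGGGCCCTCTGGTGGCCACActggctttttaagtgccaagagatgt
Tnr: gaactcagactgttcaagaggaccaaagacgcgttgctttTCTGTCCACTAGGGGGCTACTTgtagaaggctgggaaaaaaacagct
Arhgap22: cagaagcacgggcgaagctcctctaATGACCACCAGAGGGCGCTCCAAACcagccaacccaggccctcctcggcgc
Pcp4: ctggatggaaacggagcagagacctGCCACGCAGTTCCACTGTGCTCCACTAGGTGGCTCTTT
C1rb: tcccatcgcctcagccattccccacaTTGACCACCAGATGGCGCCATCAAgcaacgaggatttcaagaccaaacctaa
The motif ran in the direction of the gene at Tnr, Arhgap22, Pcp4 and C1rb and against it at Amigo3.

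The second set shows the CCAAT box, in footprints of both libraries at 33 promoters. CCAAT boxes are bound by the factor NF-Y and stand close before many starts. Tldc1 had the strongest peak in replicate 1 among the 566, and its stretch lies at chr8:119778420-119778514 on the - strand. The stretch of Fggy, a carbohydrate kinase, lies at chr4:95557395-95557493 on the + strand. H2-Eb1 and H2-Ab1 encode beta chains of MHC class II molecules. Their stretches lie at chr17:34305741-34305844 and chr17:34263118-34263201, both on the + strand, and neither holds a CpG. The box counted at H2-Eb1 lies on the opposite strand, and that counted at H2-Ab1 on the strand of the gene. Each crosses the end of the capitals. Both stretches hold the run GCTGATTGG, which carries a CCAAT box on the opposite strand. At H2-Ab1 this run lies beyond the capitals.
Tldc1: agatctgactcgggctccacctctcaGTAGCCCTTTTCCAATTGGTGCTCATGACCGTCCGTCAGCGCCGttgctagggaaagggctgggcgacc
Fggy: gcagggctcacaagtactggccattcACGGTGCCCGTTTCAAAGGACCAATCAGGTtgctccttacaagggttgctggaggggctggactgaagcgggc
H2-Eb1: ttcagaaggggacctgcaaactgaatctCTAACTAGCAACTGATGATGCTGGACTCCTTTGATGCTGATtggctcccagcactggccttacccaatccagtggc
H2-Ab1: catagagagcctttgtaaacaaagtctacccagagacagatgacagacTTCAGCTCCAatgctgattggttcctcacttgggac

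The third set shows 5 further kinds of motif, each under a footprint of both libraries. Zfp729a, a zinc finger gene, and Unc13c, which primes synaptic vesicles for release, hold the E-box CAGCTG, a site of basic helix-loop-helix factors. Their stretches lie at chr13:67637840-67637923 and chr9:73969019-73969075, both on the - strand. Gstm7, a glutathione S-transferase, holds the full palindrome of nuclear factor I at chr3:107931830-107931909 on the - strand. Dync2li1, a light intermediate chain of the dynein of cilia, holds the motif of RFX factors, which drive genes of cilia, at chr17:84626423-84626495 on the + strand. Cfap44, a protein of cilia and flagella, holds the NRF1 motif at chr16:44394679-44394743 on the + strand. The zinc finger genes Zfp72 and Zfp953 hold the cyclic AMP response element TGACGTCA at chr13:74390837-74390900 and chr13:67360606-67360667, both on the - strand and both ending 1 bp before the start.
Zfp729a: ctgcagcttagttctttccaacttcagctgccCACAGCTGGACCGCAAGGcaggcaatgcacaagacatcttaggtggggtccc
Unc13c: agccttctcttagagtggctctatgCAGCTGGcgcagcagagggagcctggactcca
Gstm7: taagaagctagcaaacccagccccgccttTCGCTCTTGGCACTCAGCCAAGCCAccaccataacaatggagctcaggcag
Dync2li1: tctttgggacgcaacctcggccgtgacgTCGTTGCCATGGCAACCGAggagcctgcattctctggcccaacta
Cfap44: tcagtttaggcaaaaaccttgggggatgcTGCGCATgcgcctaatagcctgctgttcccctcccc
Zfp72: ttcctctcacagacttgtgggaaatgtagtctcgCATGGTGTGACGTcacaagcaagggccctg
Zfp953: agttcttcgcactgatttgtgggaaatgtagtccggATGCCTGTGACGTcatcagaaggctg
The stretches of Zfp72 and Zfp953 share a run of 17 bases, ttgtgggaaatgtagtc, just upstream of the capitals. The wider footprint at each gene reaches into this run (23 bp in replicate 2 at Zfp72, 29 bp in replicate 1 at Zfp953). The run occurred on either strand in 4 of the 33 open CpG-poor zinc finger promoters and in none of the other 533. The 4 were Zfp457, Zfp72, Zfp874a and Zfp953, which all lie on chromosome 13. Because the run was defined from Zfp72 and Zfp953, those genes hold it by construction. Among the 295 open zinc finger promoters with a ratio of 0.4 or more, 6 held it (2.03%). Over all 20722 promoters it occurred in 13, and 10 of those carry a zinc finger symbol. Zinc finger genes of a cluster are related copies, so these promoters are not independent of each other.

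Few CpG-poor promoters were open. A peak in both libraries was present at 566 of 7976 (7.1%), against 55.6% of all 20722 promoters and 86.0% of the 12746 with a ratio of 0.4 or more. This difference is part of how the promoters were chosen and nothing is read from it. Among the CpG-poor promoters the share climbed from 0.419% at a ratio under 0.1 to 25.5% at a ratio from 0.3 to 0.4. A further 86 were open in replicate 1 alone and 583 in replicate 2 alone, and 6741 had no peak in either.

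**Figure D1:**
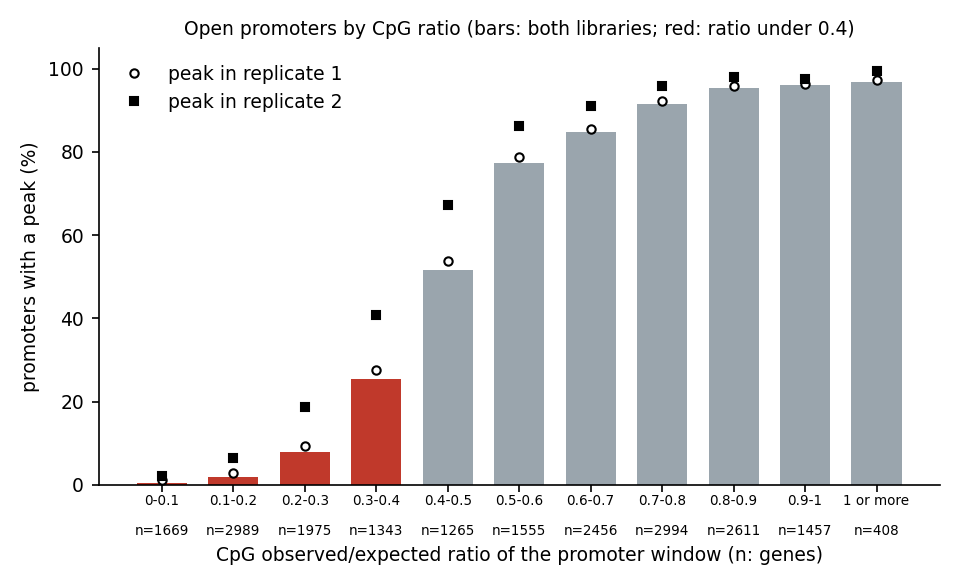
Share of promoters with a peak (y axis, percent) by class of CpG ratio (x axis), with the number of genes under each class; bars count a peak in both libraries, circles replicate 1 and squares replicate 2. The red bars under a ratio of 0.4 end at 25.5%, and replicate 2 lies above replicate 1 in every class.

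The threshold of 0.4 cuts through a continuous range. Just inside it lay Zfp976 (ratio 0.3985), Trf (0.3989), Hif3a (0.3992) and Gm45713 (0.3996), and just outside lay the open promoters of Rbpjl, Rhoj (0.4004), Srrm3 (0.4007) and Osbpl5 (0.4008). The signal values of these 4 outside ran from 0.684 to 2.95 in replicate 1, and those of the 4 inside from 0.368 to 2.32. The lowest ratios among the 566 were those of 4931408C20Rik (no CpG in its window), the olfactory receptor Olfr536 (0.0164) and Aspdh (0.0526).

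Signals were lower than at the other open promoters. The 10960 open promoters with a ratio of 0.4 or more had a median signal of 2.28 in replicate 1 and 4.77 in replicate 2. Ranked among all peaks of its library, the median CpG-poor promoter stood at percentile 57.5 in replicate 1 and 79.8 in replicate 2, and the median of the others at 86.8 and 94.7. The highest signals nevertheless overlapped those of the others. Tldc1 reached 5.86 in replicate 1 and 11.6 in replicate 2, and Tef, a clock-controlled bZIP factor, reached 5.13 and 11.9.

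Fggy (4.66 and 10.7), Amigo3 (4.77 and 7.67) and Gstm7 (4.55 and 8.17) followed by mean rank. AI464131, Nudt16l1 (a regulator of DNA repair), Sult2b1 (a sterol sulfotransferase), Pold4 (a subunit of DNA polymerase delta), Btbd2, Cyp4f13 and Olfml3 completed the 12 highest. Tldc1, Fggy, Gstm7, Pold4 and Cyp4f13 had their strongest peak across the start in both libraries, and the other 7 had it across the start in neither. At the other end stood Olfr536 (0.284 and 0.253), Adgrf5, Slc5a7 (the choline transporter), Rarb (a retinoic acid receptor), Slfn8 and Krtap14, all with a signal under 0.43 in replicate 1 and under 0.26 in replicate 2. A peak of the stricter deposited list was present in both libraries at 314 of the 566 (55.5%), against 88.2% of all 11526 promoters open in both.

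**Figure D2:**
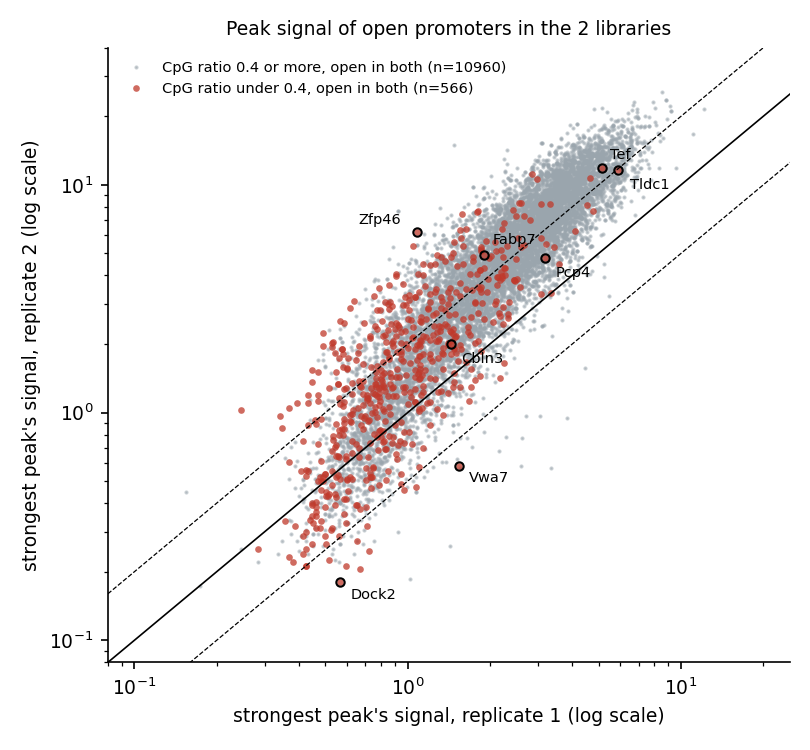
Signal of the strongest peak of each promoter in replicate 1 (x axis) and replicate 2 (y axis), both on log scales in the authors' signal units. Red points are the 566 CpG-poor promoters, grey points the 10960 others, the solid line marks equal signal and the dashed lines a 2-fold difference; most red points lie above the solid line and below the densest part of the grey cloud.

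Replicate 2 gave the higher signal at 442 of the 566 promoters (78.1%), with a median log2 difference of 0.67. At the other open promoters it was higher at 93.0%, with a median of 1.03. The difference was at least 2-fold toward replicate 2 at 188 CpG-poor promoters (33.2%), below the 51.3% of all promoters open in both. It was at least 2-fold toward replicate 1 at 12 (2.12%), against 0.521% of all. The difference moved with the strength of the peak. Among promoters with a mean percentile under 50 the median was -0.22 for the CpG-poor and -0.18 for the others, and at 90 and above it was 1.03 and 1.19. Across promoters the log2 signals of the libraries had a Pearson's r of 0.777 and a Spearman's rank correlation of 0.774 (566 points, all from the same pair of libraries and their depths), and an r of 0.903 at the other 10960.

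The largest differences toward replicate 2 were at Zfp46 (1.08 and 6.19, log2 difference 2.51) and Stmn4, a tubulin-binding stathmin of neurons (1.05 and 5.41, log2 difference 2.36). Fam198b, Fez1 (an adaptor of axonal transport), Gng2 (a G protein gamma subunit) and 5430403G16Rik followed, each with a log2 difference between 2.19 and 2.27. The largest toward replicate 1 were at Hspa4l (0.671 and 0.206), Dock2, an immune-cell activator of Rac (0.568 and 0.18), Orc4, Lmo3, Vwa7 and Dapl1. Of these only Vwa7 (1.54 in replicate 1) had a signal above 0.73 in either library. At Gng2, 5430403G16Rik, Hspa4l and Orc4 the strongest peaks of the libraries did not overlap. The signals compared at these genes therefore come from different sites in the window. Depth, normalization and tissue content of the libraries cannot be told apart as sources of these differences.

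The 566 genes covered many functions. They were sorted by hand into 10 classes once their names were known, without regard to their values, and with 3 symbol families (zinc finger, solute carrier and provisional names) these took in 373 genes. Counts in a class describe the genes found there and were not compared with chance.

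Genes of synapse, axon and neuronal adhesion numbered 34, with medians of 0.939 and 1.93. A higher signal in replicate 2 was found at 31 of them (91.2%), against 78.1% of all 566 and 93.0% of the other open promoters. Clstn3, a postsynaptic calsyntenin, had signals of 2.55 and 8.29. The stathmins Stmn2, Stmn3 and Stmn4 had signals of 0.729, 1.73 and 1.05 in replicate 1 and of 2.12, 4.83 and 5.41 in replicate 2. Gap43, a growth cone protein, had 0.581 and 1.58. All 5 thus stood above equality toward replicate 2. Other synaptic adhesion genes were Nlgn1 (0.916 and 1.85) and Cntnap2 (1.1 and 1.4). By symbol, 10 of 33 CpG-poor genes for cadherins and neuronal adhesion were open in both libraries (30.3%), beside 7.1% of all CpG-poor promoters. CpG ratios were not matched. With a ratio of 0.4 or more, 49.4% of this family were open, against 86.0% of all such promoters. The 10 include Cdh15 and Pcdhga12, which are not in the class of 34. The other families counted by symbol, apart from zinc finger genes, lay between 0% and 17.9%, among them neurotransmitter receptors (17.9%), small GTPases and their regulators (16.7%), solute carriers (11.8%), cytochromes P450 (7.14%) and cytokines with their receptors (6.43%).

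Ion channels and transmitter receptors gave 20 genes with medians of 0.881 and 1.06, and the other G-protein-coupled receptors gave 23 with medians of 0.703 and 0.792. Of those 23, 11 were higher in replicate 2 (47.8%), against 78.1% of all 566, and their median log2 difference was -0.06. Peak strength was not matched, and CpG-poor promoters of any function with a mean percentile under 50 had a median of -0.22. The receptor class included Ackr3 (1.7 and 2.63), an atypical chemokine receptor, and Oprk1 (0.664 and 0.639), the kappa opioid receptor. It also held 3 of 1123 CpG-poor olfactory receptor genes. No vomeronasal receptor of 328 and no defensin of 63 was open in both.

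**Figure D3:**
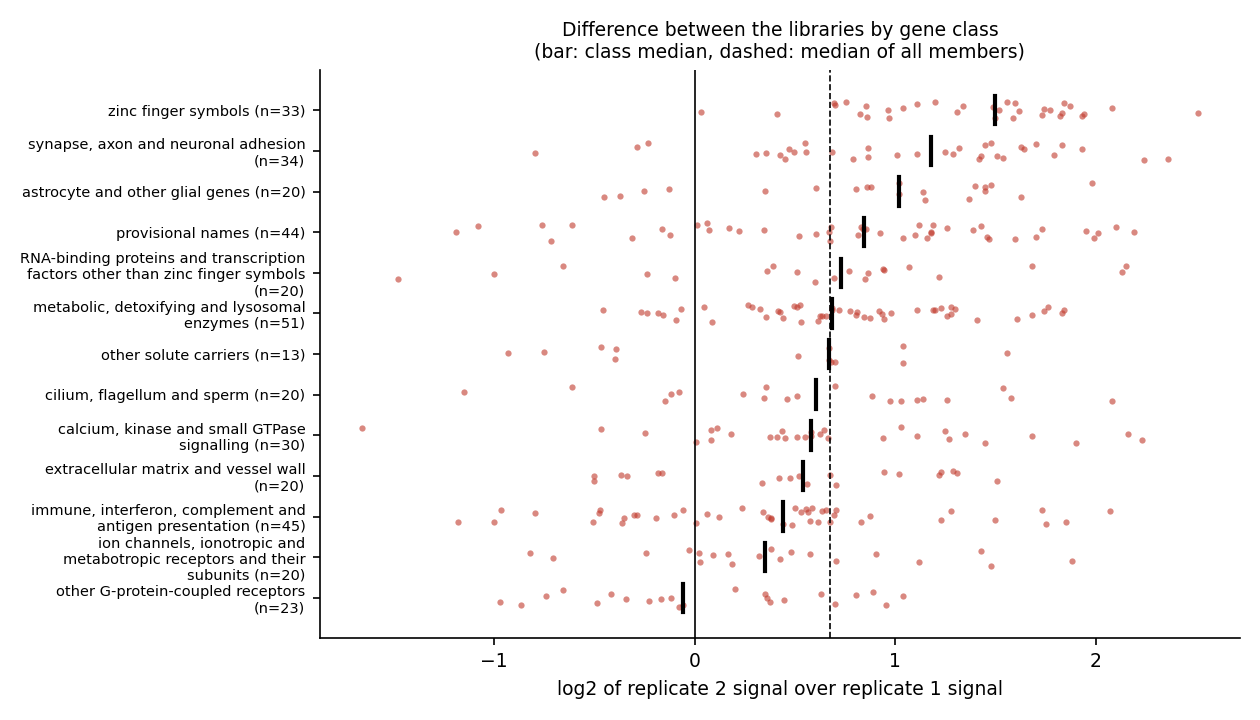
Log2 of the replicate 2 signal over the replicate 1 signal (x axis) for each gene of 13 classes (y axis, n in brackets); black bars are class medians, the dashed line the median of all 566. Zinc finger symbols lie farthest to the right (median 1.5, all 33 above 0) and the other G-protein-coupled receptors straddle 0.

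Zinc finger symbols made up 33 of the 566. Most such genes encode DNA-binding repressors that arose by duplication and stand in clusters. Of 104 CpG-poor zinc finger promoters 31.7% were open in both libraries, against 7.1% of all CpG-poor promoters. The latter share rose with the CpG ratio, up to 25.5% at a ratio from 0.3 to 0.4, and ratios were not matched here. Of zinc finger promoters with a ratio of 0.4 or more 94.9% were, against 86.0% of all such promoters. All 33 had the higher signal in replicate 2 (medians 0.877 and 2.45), with a median log2 difference of 1.5. This was so at 96.9% of the 295 other open zinc finger promoters, which is close to it, and at 76.7% of the 533 CpG-poor promoters of other genes. The difference was at least 2-fold at 23 (69.7%), against 59.7% and 31.0% in those sets and 51.3% of all promoters open in both. The median log2 difference was 1.16 at the other open zinc finger promoters and 0.63 at the CpG-poor promoters of other genes. Zfp958 had 1.81 and 7.65, Zfp260 had 2.59 and 5.32, and Zfp457 had 1.21 and 4.44. Chromosome 13 held 9 of the 33, chromosome 7 held 8 and chromosome 17 held 6. Within 1000000 bp of another of the 33 lay 18 of them, so neighbouring genes are not independent.

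The granule, Purkinje and astrocyte marker lists held at most 8 CpG-poor genes each, so their shares are coarse. Among all CpG-poor promoters 7.1% were open in both libraries. Of 4 CpG-poor granule lineage genes only Cbln3, the cerebellin of granule cells, was open in both libraries (1.44 and 2.00; mean 1.72 ± 0.394, SD, n = 2), and its strongest peak lay 528 and 548 bp upstream. Of 4 Purkinje cell genes 2 were, and Pcp4 was the stronger of them (3.18 and 4.76; 3.97 ± 1.11, SD, n = 2). Of 8 genes of astrocytes and Bergmann glia 3 were: Fabp7, the brain lipid-binding protein of radial glia (1.91 and 4.94; 3.43 ± 2.14, SD, n = 2), Aldoc (0.948 and 1.72) and Sparcl1 (0.761 and 1.33). Pcp4 and Fabp7 had the peak across the start in both libraries. Another 4 of the astrocyte genes, Aldh1l1, Hepacam, Mlc1 and S100b, had a peak in replicate 2 alone.

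The lists for other cell types gave Ptgds alone (0.813 and 1.04), 1 of 8 CpG-poor genes of meninges and fibroblasts. None was open in both libraries among 16 CpG-poor genes of microglia and other myeloid cells, 11 of endothelial and mural cells, 9 of the oligodendrocyte lineage, 2 of GABAergic interneurons and 5 of choroid plexus and ependyma. The same held for 10 of the red blood cell lineage, 14 of liver, 11 of muscle and 11 of epithelia. With 7.1% of all CpG-poor promoters open in both, lists of this size hold few or none at the general share, and nothing about a cell type is read from the zeros. A peak in replicate 2 alone was present at 5 of the endothelial and mural genes (Cdh5, Myl9, Pdgfrb, Rgs5 and Tagln), at 2 of meninges and fibroblasts, and at 1 each of the granule, Purkinje, oligodendrocyte, myeloid, choroid plexus, muscle and epithelial lists. A peak in replicate 1 alone was present at Gad1 (interneurons), Pdgfra (oligodendrocyte lineage) and Igf2 (meninges and fibroblasts). Over all CpG-poor promoters the numbers were 583 and 86. In such bulk tissue, fewer cells of a type and less opening per cell cannot be told apart.

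A class of 20 astrocyte and other glial genes, made from all 566, had medians of 0.848 and 1.73. Ncan, a proteoglycan of the brain matrix, had 2.66 and 7.28, Mt3, a brain metallothionein, 1.3 and 2.39, and Apoe, the apolipoprotein that astrocytes secrete, 0.987 and 2.00. Lgi4 (2.26 and 1.65) was among the 4 of 20 that were higher in replicate 1.

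Genes of immunity, interferon response, complement and antigen presentation numbered 45, with medians of 0.703 and 1.03, and 31 were higher in replicate 2. The class II genes H2-Eb1 (2.2 and 5.16), H2-Ab1 (1.11 and 1.97) and H2-Aa (1.06 and 1.11) lie next to each other on chromosome 17, and each had at least 2 footprints in both libraries. Il6, which encodes a cytokine, had 1.59 and 4.51 with 5 and 4 footprints, and its peak did not cover the start. C1rb (1.08 and 1.99) and its relative C1ra (0.71 and 1.16) both had a CTCF motif in footprints of both libraries. As given above, none of the 16 CpG-poor myeloid markers was open in both.

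Enzymes of metabolism, detoxification and lysosomes formed the largest class, with 51 genes and medians of 1.06 and 1.54. They included Tpp1, a lysosomal peptidase (2.3 and 5.39), and Hsd3b7, an enzyme of bile acid synthesis (2.52 and 3.86), whose window had a CpG ratio of 0.100. Grn, the precursor of granulins, had 1.26 and 4.5. Genes of cilium, flagellum and sperm numbered 20, with medians of 0.913 and 1.35, and 16 of the 20 had the peak across the start in both libraries, against 225 of all 566 (39.8%). Cfap52 (2.14 and 3.95), Dync2li1 (1.99 and 4.75), Rsph14 (1.97 and 3.87) and Cfap44 (1.52 and 4.4) were the strongest of these.

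Many peaks stood beside the annotated start rather than on it. The strongest peak covered the start in both libraries at 39.8% of the CpG-poor and 63.3% of the others, and in neither at 43.1% and 22.3%. Its centre lay over 250 bp away in both libraries at 130 CpG-poor promoters (23.0%), of which 87 lay downstream and 40 upstream, against 11.8% of the others. The 225 promoters with the peak on the start had medians of 0.987 and 1.92, and the 244 with it elsewhere in both had 0.964 and 1.51. The 97 with it on the start in 1 library had the lowest medians, 0.748 and 1.09. The strongest peaks of the libraries overlapped each other at 518 promoters (91.5%).

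**Figure D4:**
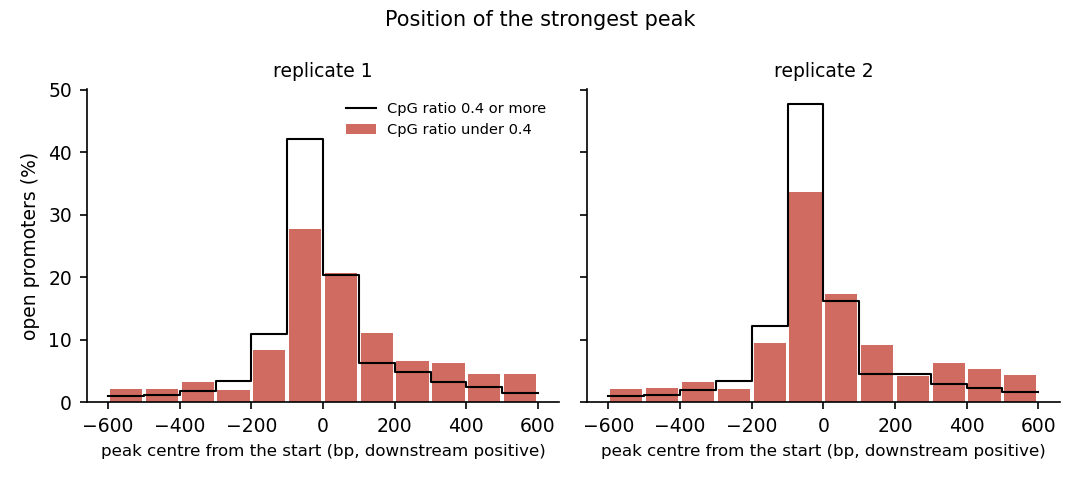
Distance of the strongest peak's centre from the start (x axis, bp, downstream positive, bins of 100 bp) against the share of promoters (y axis, percent) in each library. Red bars are the 566 CpG-poor promoters and the black line the 10960 others; in the bin just before the start the bars reach 27.7% and 33.6%, against 42.1% and 47.7% for the line.

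The annotation bears on which start was measured. The 5'-most start lay within 100 bp of a RefSeq start at 319 of the 442 genes that RefSeq's GRCm38 promoter table held. Among these 50.8% had the peak on the start in both libraries, and among the 123 farther away 18.7% had. Another gene's transcript began in the window at 65 promoters (11.5%), against 29.6% of the other open promoters. Of the 566 genes, 63 had another coding start of their own with a CpG ratio of 0.6 or more. A start with a ratio of 0.6 or more lay within 1000 bp of 31, Btbd2, Sult2b1 and Cish among them. Some genes share a peak: the 566 promoters had 560 distinct strongest peaks in each library, and Tmem176a and Tmem176b, neighbours on chromosome 6, share one (2.46 and 3.82).

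Other features of the windows lay between the closed CpG-poor and the other open promoters. Median GC content was 51.8% at the 566, 60.1% at the other open promoters and 45.2% at the 6741 CpG-poor promoters with no peak. Soft-masked repeats took a median of 10.3%, 6.99% and 14.1% of the window. The peak itself was richer in CpG than its window at 405 of the 566 in replicate 1 and 397 in replicate 2. Median ratios were 0.411 and 0.392 in the peak and 0.323 in the window. The other open promoters went the same way, with medians of 0.864 and 0.854 in the peak and 0.758 in the window. At 64 of the 566 (11.3%) the peak reached a ratio of 0.6 in both libraries, against 87.2% of the others.

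Footprints were called in both libraries at 480 of the 566 promoters (84.8%), against 95.1% of all promoters open in both. Replicate 1 had at least 1 at 494, replicate 2 at 538, and 14 had none in either. The CpG-poor promoters had on average 2.02 footprints in replicate 1 and 3.24 in replicate 2, and the others had 3.66 and 5.21. Set beside others in the same class of signal rank, the CpG-poor promoters had a lower mean number of footprints in all 5 classes of each library. The share with a footprint was lower in some classes and higher in others. In replicate 1 it was 61.7% against 58.3% under percentile 25, 78.9% against 84.8% from 25 to 50 and 94.0% against 95% from 50 to 75. In replicate 2 it was 52.6% against 58% under percentile 25, 94.6% against 89.9% from 25 to 50 and 100% against 99% from 75 to 90.

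Summed over the libraries, the most footprints were at Scgb1c1 (13 and 5), Rnf112, a brain ubiquitin ligase (10 and 8), and Slc8a2, a sodium/calcium exchanger of neurons (8 and 9). Tnr (6 and 10) came next, and 7 genes then tied at a sum of 13, among them Cish (4 and 9), 2900011O08Rik (5 and 8), Zfp260 (6 and 7) and Cntnap2 (5 and 8). In replicate 2 alone the highest number was 11, at genes with at most 2 in replicate 1.

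In all, 1130 footprints of replicate 1 and 1805 of replicate 2 lay in peaks of these promoters, with a median width of 9 and 10 bp. Of the replicate 1 footprints 586 (51.9%) overlapped one of replicate 2 at the same promoter, and 34 (3.01%) had the same ends. At the other open promoters these shares were 60.4% and 1.75%. At least 1 footprint was shared at 354 promoters (62.5%), against 85.1% of the others. The footprint printed for Tnr was 22 bp wide in replicate 1 and 37 bp in replicate 2, whereas that of Unc13c had the same ends in both.

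The motifs in these footprints were counted beside those at the other open promoters. The CTCF motif was in 2.74% and 1.55% of the CpG-poor footprints (replicates 1 and 2) and in 0.503% and 0.436% of the others. The single arm TTGGCA of the nuclear factor I palindrome was in 1.95% and 2.77% against 0.573% and 0.865%. The E-box CAGCTG was in 2.39% and 1.94% against 0.873% and 0.896%. The GC box GGGCGG, which itself holds a CpG, went the other way, with 6.11% and 7.15% against 16.7% and 18.5%, as did the Ets site CCGGAA with 1.06% and 1.66% against 2.84% and 3.34%. The CCAAT box was about as frequent in both, with 4.51% and 4.54% against 4.06% and 5.26%. Base composition differs between the sets and was not adjusted for, and a match is not a shown site of binding.

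**Figure D5:**
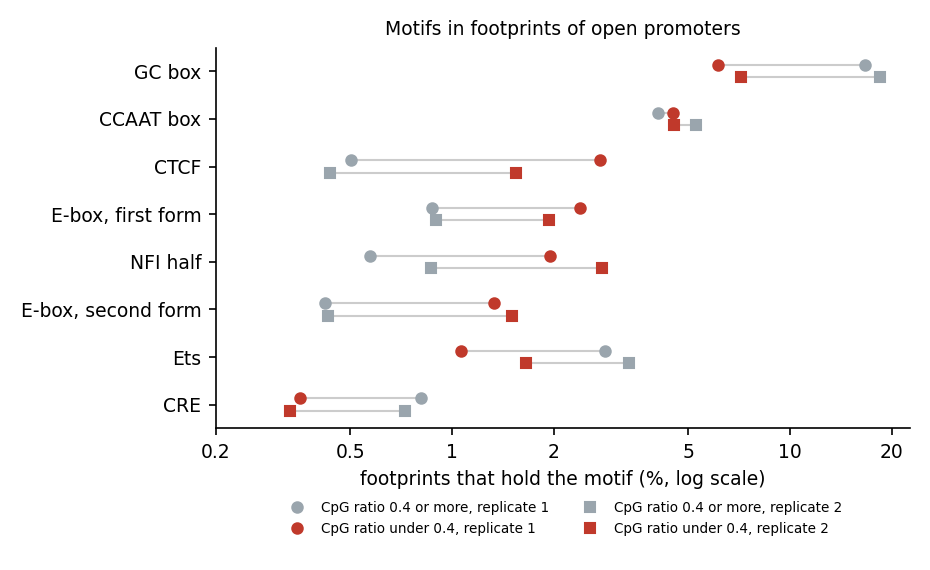
Share of footprints that hold each motif (x axis, percent, log scale) for CpG-poor promoters (red) and the other open promoters (grey), circles for replicate 1 and squares for replicate 2; the first form of the E-box is CAGCTG and the second CAGATG, and TTGGCA is marked as a partial nuclear factor I site. CTCF, both E-boxes and the arm TTGGCA lie to the right for CpG-poor promoters, and the GC box, Ets and CRE to the left.

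Over the whole window, the CTCF motif occurred on either strand at 10.4% of the 566, 8.39% of the other open promoters and 4.75% of the closed CpG-poor ones. The E-box CAGCTG occurred at 56.9%, 39.6% and 42.4%, the arm TTGGCA at 42.4%, 29.6% and 43.8%, and the CCAAT box at 72.4%, 65.9% and 78.2%. The GC box occurred at 49.3%, 90.4% and 16%, the Ets site at 23.9%, 51.5% and 10.1%, the cyclic AMP response element at 2.47%, 5.2% and 0.935%, and E-box CAGATG at 54.1%, 34.2% and 55.2%. The full palindrome of nuclear factor I occurred at 3 of the 566, the NRF1 motif at 3 and the RFX motif at 8. A TATA box (TATAAA between 40 and 20 bp before the start) occurred at 6 of the 566 (1.06%), at 0.712% of the other open promoters and at 5.12% of the closed CpG-poor ones. The 6 were Tph2, which makes serotonin in neurons, Adamtsl2, Agt (angiotensinogen), Tnfsf18, Agtr1b and Dapl1.

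The 25 promoters with a CTCF motif in footprints of both libraries had medians of 1.49 and 2.29, and 16 of them had no peak on the start in either library. They included Akt1, Hsp90aa1, Trex1 (a DNA exonuclease), Hsd3b7 and Nr6a1 beside those printed. The 33 with a CCAAT box had medians of 1.55 and 4.51, and the 20 of them with the peak on the start in both libraries included Fabp7, Fez1 and Clstn3. The 48 with a GC box had medians of 1.45 and 2.09. Of the 13 with E-box CAGCTG, 4 had the peak on the start in both libraries, and of the 16 with the arm TTGGCA, 7 had. All these groups were formed from promoters with footprints in both libraries, so their signals are not compared with those of all 566.

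Each promoter of the 566 held bases whose cut rate passed the deposited false discovery rate of 0.05 in both libraries. Peaks and rates were called on the same alignments, so this comes with the choice of promoters and is not separate support. The lowest rate in the window was under 0.001 at 353 in replicate 1 (62.4%) and 524 in replicate 2 (92.6%). At the other open promoters these shares were 91.8% and 98.5%. Among the strongest CpG-poor promoters with a peak in 1 library alone were Gm17349 and Aloxe3 (1.32 and 1.06 in replicate 1) and Slc4a7, Kcnj9 and 4933407L21Rik (6.25, 3.9 and 3.65 in replicate 2). In the library without a peak, the lowest rate was still 1.72e-16 at Slc4a7, 3.91e-08 at Aloxe3 and 0.0473 at Kcnj9. Gm17349 and 4933407L21Rik had no base under 0.05 there. Among the 6741 CpG-poor promoters with no peak, 43 held bases under 0.05 in replicate 1, 97 in replicate 2 and 15 in both.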

How the data were processed

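DNase-seq was measured in 2 libraries. Per the deposited notes, peaks, footprints and false discovery rates were called on the alignments of each library alone, to mm10. Peak and footprint callers were not given in the sources used here. Per peak, the deposited lists hold a signal value (column 7 of the narrowPeak format), whose normalization is not stated. The deposited false discovery rates (q-values) are per interval, all under 0.05, and the footprint files carry 0.01 on every line, so only footprint positions were used.

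From these, GENCODE M21 starts, the CpG ratio, the strongest overlapping peak (minimum overlap 1 bp) and all footprints in overlapping peaks were computed per gene with Python 3.11.15, pandas 2.3.3, pysam 0.24.0 and bedtools 2.31.1, checked on simulated data. No test was run, since the promoters were selected by the peaks. The members and lists were chosen with earlier results of these data known. Genes were named by a rule: the 12 highest and 6 lowest mean ranks, the 6 largest differences each way, the 6 with most footprints (ties included in part), the lowest CpG ratios, those beside the threshold, the strongest in 1 library alone and cell-list members, with examples for functions and motifs chosen after their values were seen. Some genes that this rule names are not reported here.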

Additional observations from a re-analysis of the deposited data

How the results depend on the processing

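The number of promoters followed the definition. It was 223 at a ratio threshold of 0.3, 1220 at 0.5, 315 with the stricter peak list and 974 when any coding start of a gene could qualify, against 566. With a single library it was 652 (without replicate 2) and 1149 (without replicate 1). The other 6 alternatives kept it within 1.5 times. The share of CpG-poor promoters open was 3.36% at a threshold of 0.3, 13.2% at 0.5, 3.95% with the stricter list, and 8.17% to 14.4% with a single library, against 7.1%. The median signal in replicate 2 was 2.37 with the stricter list and 0.832 without replicate 1, against 1.55, and that in replicate 1 was 0.832 without replicate 2, against 0.916. A footprint in both libraries was present at 92.4% with the stricter list and 92% with equal numbers of peaks, and in the remaining library at 83.4% to 86.3%, against 84.8%. The cause of these shifts was not tested, apart from what each definition fixes. The median log2 difference stayed between 0.64 and 0.85 in its 10 alternatives; a single library gives none. No paired analysis was possible because there is 1 group. Read depth is unknown, so weak peaks missed in replicate 1 cannot be told from closed promoters.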
